A study of Mus musculus with 9 samples.

Results

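The genes described here are 8 mouse tubulin genes: Tuba4a and Tuba1a encode alpha-tubulins, Tubb2a, Tubb2b, Tubb3, Tubb5 and Tubb6 encode beta-tubulins, and Tubg1 encodes gamma-tubulin. They were 8 of the 12393 genes measured, and 12 of the 22690 probe sets on each array named 1 of them alone. Every such probe set is given separately. The genes were chosen with their values in these comparisons known, Tuba4a because it read so much lower in the transformed lines. Their levels, differences and adjusted p-values are therefore descriptions of the members and test nothing about them.

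Gene expression was measured on Affymetrix arrays in 3 mouse cell lines, 3 arrays a line. SV5 NN4 is a stable clone of fibroblasts that carries the SV40 large T antigen together with added wild-type N-ras. SV5 is a stable clone carrying the SV40 large T antigen alone. NIH 3T3, the untransformed embryo fibroblast line, is the parent of both. All 3 lines grew in the same medium with 10% calf serum, and each transformed line is 1 clone, so clone and transgene cannot be told apart. Levels are given as log2(intensity + 1), and differences as log2 differences from 1 fit to all 9 arrays in which the replicate number was a block. A probe set was called where limma's Benjamini-Hochberg adjusted p over all 22690 probe sets was under 0.05.

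Microtubules are hollow polymers of alpha- and beta-tubulin heterodimers. Vertebrates carry several genes for each subunit, and the encoded isotypes differ mainly in their C-terminal tails, which motors, severing enzymes and modifying enzymes read. Gamma-tubulin is not built into the wall of the polymer. It sits in a ring complex at the centrosome, where it starts new microtubules. Cells also watch the pool of free subunits: when unpolymerised tubulin is in excess, the mRNAs of alpha- and beta-tubulins are degraded while they are being translated. In fibroblasts, microtubules carry cargo and shape the cell in interphase and form the spindle in mitosis.

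The promoters of 4 of the genes are shown because these genes contrast in the values that follow. Tuba4a, Tuba1a and Tubb2a had probe sets that were lower in SV5 NN4 than in both other lines, and the brightest Tubb5 probe set averaged highest there. The 4 were picked after these values were seen, and only Tuba4a among them had a called probe set. RefSeq sequences of 250 bases before to 50 bases after the gene start (GRCm38.p6) were at hand for 5 of the 8 genes. Each is printed 5′ to 3′ along the gene, and capitals mark a match on either strand to CCAAT (the word of the CCAAT box), to GGGCGG (the GC box), to TATAA (the core of the TATA box) or to CACGTG (the E-box).
Tuba4a, chr1:75219245-75219544, minus strand: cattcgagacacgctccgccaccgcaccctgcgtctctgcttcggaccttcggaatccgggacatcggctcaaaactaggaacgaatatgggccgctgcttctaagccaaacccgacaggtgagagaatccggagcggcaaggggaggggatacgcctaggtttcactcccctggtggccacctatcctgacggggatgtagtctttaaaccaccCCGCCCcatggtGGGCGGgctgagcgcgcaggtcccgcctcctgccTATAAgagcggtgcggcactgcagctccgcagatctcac
Tuba1a, chr15:98953452-98953751, minus strand: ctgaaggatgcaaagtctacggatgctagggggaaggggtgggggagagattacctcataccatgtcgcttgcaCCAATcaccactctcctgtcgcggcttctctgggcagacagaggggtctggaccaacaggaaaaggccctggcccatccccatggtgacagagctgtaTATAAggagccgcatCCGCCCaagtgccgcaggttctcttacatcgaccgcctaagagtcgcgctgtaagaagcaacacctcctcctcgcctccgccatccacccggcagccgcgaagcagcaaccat
Tubb2a, chr13:34077959-34078258, minus strand: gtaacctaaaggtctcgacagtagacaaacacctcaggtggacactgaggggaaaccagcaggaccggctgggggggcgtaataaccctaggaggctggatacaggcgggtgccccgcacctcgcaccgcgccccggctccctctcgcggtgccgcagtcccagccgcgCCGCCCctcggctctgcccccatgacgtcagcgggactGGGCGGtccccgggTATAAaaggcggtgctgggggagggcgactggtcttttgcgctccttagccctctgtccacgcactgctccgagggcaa
Tubb5, chr17:35838252-35838551, minus strand: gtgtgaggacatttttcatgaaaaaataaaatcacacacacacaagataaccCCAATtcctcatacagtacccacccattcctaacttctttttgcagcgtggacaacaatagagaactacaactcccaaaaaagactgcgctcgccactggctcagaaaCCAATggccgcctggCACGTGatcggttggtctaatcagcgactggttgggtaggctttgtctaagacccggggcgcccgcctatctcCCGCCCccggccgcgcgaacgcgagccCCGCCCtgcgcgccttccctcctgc

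GGGCGG was found in each of these 4 windows, and in 35.7% of the 32851 mouse promoters of the same length. TATAA, which 24.9% of those promoters hold, lay 29 bases before the Tubb2a start (-29), at -78 in Tuba1a and 12 bases after the annotated Tuba4a start. The Tubb5 window held no TATAA. It held CCAAT at -198 and -90 and CACGTG at -75, motifs found in 37.4% and 7.15% of the promoters, and Tuba1a held 1 CCAAT at -176. The GC content was 62% for Tuba4a, 59% for Tuba1a, 67% for Tubb2a and 55% for Tubb5. The motif matches within a window did not overlap each other.

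The arrays fitted their labels as fibroblasts. All 10 fibroblast marker genes looked at, among them Col1a1, Vim and Pdgfra, lay above the median probe set mean of 5.93. Of 10 neuronal markers, 1 (Syp) lay above that median and 6 lay within the range of 9 bacterial control probe sets that should carry no mouse signal (3.18 to 4.25). Of other lists, 1 of 8 striated muscle, 1 of 6 epithelial and 2 of 6 macrophage markers reached that median. So did 2 of 4 measured platelet markers and 0 of 5 endothelial markers. The 3 Nras probe sets differed by 0.05 to 0.27 between SV5 NN4 and SV5 (limma adjusted p 0.55 to 0.98), so they gave no check of the added N-ras. Against NIH 3T3, SV5 NN4 differed by 0.24 to 1.02, with 1 of the 3 probe sets called (1.02, adjusted p 0.046, and 1 without the replicate block), and SV5, which has no added N-ras, by -0.03 to 0.97 with none called. The median probe set of an array had an intensity between 56.2 and 62.35. The upper quartile ran from 165.2 to 239.7 and was higher on the replicate 3 array than on the others in each line, so the arrays did not share 1 distribution of values. The Actb 3′ probe set exceeded its 5′ probe set, a measure of RNA and labelling quality, by 4.12 ± 0.49 on the log2 scale in SV5 NN4, 3.49 ± 0.97 in SV5 and 4.58 ± 0.43 in NIH 3T3 (SD, n = 3 each). For Gapdh the same measure was 3.08 ± 0.43 in SV5 NN4, 2.61 ± 0.36 in SV5 and 3.62 ± 1.39 in NIH 3T3, and NIH 3T3 replicate 3 stood apart at 5.21, where the other 8 arrays lay between 2.36 and 3.52. That array also had the highest level of Tuba1a, Tubb2b, Tuba4a probe set 1417374_at and Tubb5 probe set 1455719_at. Without it the SV5 NN4 differences against NIH 3T3 were -0.59 for Tuba1a, -2.04 for Tubb2b and -0.42 for that Tubb5 probe set, and the SV5 differences against NIH 3T3 were -0.28, -0.76 and -0.59. The 3′ excess was present on all 9 arrays, at 2.42 to 5.06 for Actb and 2.36 to 5.21 for Gapdh. The part of these quality values in the results was not tested.

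Tuba4a encodes an alpha-tubulin that, unlike most others, has no tyrosine coded at its C-terminal end. Its brightest probe set over the 9 arrays, 1417373_a_at, averaged 6.31 ± 0.40 in SV5 NN4, 7.59 ± 0.50 in SV5 and 10.21 ± 0.34 in NIH 3T3 (SD, n = 3 each). It ranked brightest through its NIH 3T3 level. In SV5 it was close to 1417375_at (7.50), and in SV5 NN4 it was below both 1417375_at (7.51) and 1417374_at (6.40). On the linear scale the intensities of 1417373_a_at were 85.77, 98.09 and 56.85 on the SV5 NN4 arrays, 138.6, 277.9 and 183.9 on the SV5 arrays, and 906.5, 1407 and 1291 on the NIH 3T3 arrays. The 3 lines did not overlap: every SV5 NN4 array was below every SV5 array, and every SV5 array was below every NIH 3T3 array. In bulk RNA, fewer cells with the transcript and less transcript per cell cannot be told apart.

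The SV5 level of this Tuba4a probe set was below that of NIH 3T3 on the log2 scale, with a difference of -2.61 (SE 0.22, 6.12-fold lower) and pair differences of -2.70, -2.34 and -2.80. No probe set of the 22690 had a more negative difference in that comparison. SV5 NN4 was lower again, by -1.29 against SV5 (SE 0.22, 2.44-fold lower), with pair differences of -0.69, -1.49 and -1.68. Against NIH 3T3 the SV5 NN4 difference was -3.90 (95% interval -4.43 to -3.37), or 14.9-fold lower. The adjusted p-values of limma were 0.048 for SV5 against NIH 3T3, 0.057 for SV5 NN4 against SV5 and 0.0018 for SV5 NN4 against NIH 3T3. Without the replicate block they were 0.27, 0.48 and 0.0025.

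The other Tuba4a probe sets did not show differences of that size. Probe set 1417375_at read 7.51 ± 0.51 in SV5 NN4, 7.50 ± 0.30 in SV5 and 7.65 ± 0.48 in NIH 3T3 (SD, n = 3 each). The lines overlapped, and the differences were 0.01 for SV5 NN4 against SV5 and -0.15 for SV5 against NIH 3T3 (95% interval -0.48 to 0.19). Probe set 1417374_at read 6.45, 6.37 and 6.38 in SV5 NN4, 6.78, 6.72 and 6.41 in SV5, and 7.33, 7.02 and 8.73 in NIH 3T3. Both transformed lines lay below NIH 3T3 on this probe set, by -1.29 for SV5 NN4 and -1.06 for SV5, and NIH 3T3 replicate 3 alone exceeded 8. Without that array the differences were -0.71 and -0.48. The mean of the 3 Tuba4a probe sets differed by -1.27 for SV5 against NIH 3T3, -0.51 for SV5 NN4 against SV5 and -1.78 for SV5 NN4 against NIH 3T3. By its suffix, the brightest probe set matches several transcripts of the gene, and which transcripts each probe set reads was not tested.

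**Figure D1:**
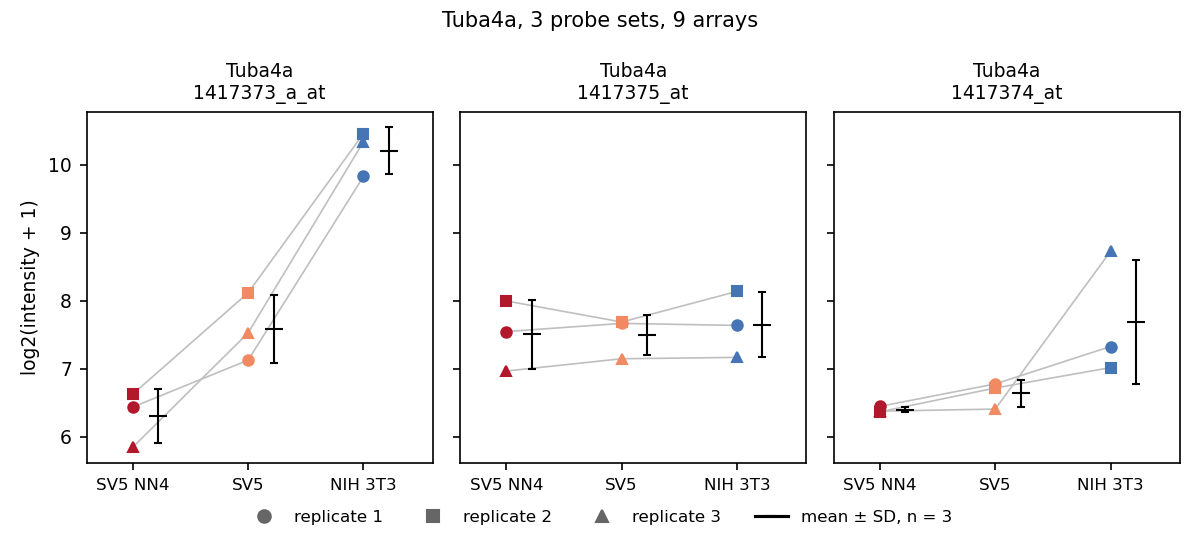
Levels of the 3 Tuba4a probe sets on each array, as log2(intensity + 1), with a panel for each probe set. Points are arrays, marked by replicate number, and the bars give the mean ± SD of 3 arrays for SV5 NN4, SV5 and NIH 3T3. The lines separate on 1417373_a_at (means 6.31, 7.59 and 10.21) and overlap on 1417375_at.

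Tuba1a encodes the main alpha-tubulin of developing neurons and is also made by dividing cells. Its probe set 1418884_x_at read 11.83, 11.99 and 12.28 in SV5 NN4, 12.30, 12.38 and 12.35 in SV5, and 12.65, 12.47 and 13.07 in NIH 3T3. The lines stood in the same order as for Tuba4a, without overlap and over a narrower range. The differences were -0.31 (SE 0.15) for SV5 NN4 against SV5, -0.38 (SE 0.15) for SV5 against NIH 3T3 and -0.69 (SE 0.15) for SV5 NN4 against NIH 3T3, with limma adjusted p of 0.46, 0.31 and 0.074. The suffix of this probe set marks probes shared with other transcripts, so signal from the near-identical Tuba1b and Tuba1c cannot be separated from that of Tuba1a. A further 7 tubulin probe sets carried several symbols and were not used.

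Tubb2a and Tubb2b are close relatives on chromosome 13, with 1 annotated gene between them, and both are major beta-tubulins of neurons. Tubb2b, probe set 1452679_at, had intensities of 53.04, 87.31 and 69.38 in SV5 NN4, 150.8, 224.9 and 140.4 in SV5, and 215.7, 410.1 and 564.1 in NIH 3T3. All SV5 NN4 arrays lay below all arrays of both other lines, while SV5 replicate 2 reached above NIH 3T3 replicate 1. Its log2 difference was -1.28 for SV5 NN4 against SV5 (SE 0.26, pair differences -1.49, -1.35 and -1.01). For SV5 against NIH 3T3 it was -1.13 (SE 0.26, pair differences -0.51, -0.86 and -2.0). SV5 NN4 was 5.31-fold lower than NIH 3T3 (-2.41, SE 0.26, limma adjusted p 0.014, and 0.12 without the block).

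The brighter Tubb2a probe set, 1427347_s_at, read 10.16, 10.72 and 10.15 in SV5 NN4, 10.87, 11.61 and 10.51 in SV5, and 10.84, 11.49 and 10.92 in NIH 3T3. SV5 and NIH 3T3 overlapped, with a difference of -0.09 (SE 0.15). SV5 NN4 and SV5 overlapped too, but SV5 NN4 was lower than SV5 in each pair, by -0.72, -0.89 and -0.36. The SV5 NN4 differences were -0.66 against SV5 and -0.74 against NIH 3T3, with limma adjusted p of 0.098 and 0.06. Its dimmer probe set, 1427838_at, spanned 6.30 to 9.5, and replicate 3 was lowest in each of the 3 lines. On that probe set the differences were -0.39 for SV5 NN4 against SV5 and -0.12 for SV5 against NIH 3T3 (SE 0.25), and the lines overlapped. Without SV5 replicate 1 they were -0.10 and -0.42, and without SV5 replicate 3 they were -0.62 and 0.10. The suffix of the brighter Tubb2a probe set marks probes that match several transcripts, and Tubb2b sequence is close enough that shared signal cannot be told apart.

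Tubb3 is the beta-tubulin widely used as a marker of neurons. On probe set 1415978_at its level was close to the bacterial control range in all 3 lines: 4.14, 4.14 and 3.97 in SV5 NN4, 3.93, 4.23 and 3.68 in SV5, and 5.56, 4.28 and 3.93 in NIH 3T3. NIH 3T3 replicate 1 was the only array above 5. The SV5 difference against NIH 3T3 was -0.64 (SE 0.31) and -0.17 without that array.

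Tubb5 is the beta-tubulin made by most proliferating cells. Its brighter probe set, 1416256_a_at, read 12.22, 11.30 and 12.76 in SV5 NN4, 11.87, 11.13 and 12.22 in SV5, and 11.46, 10.27 and 12.23 in NIH 3T3. Replicate 2 was lowest in every line, so the lines overlapped, and within each pair SV5 NN4 exceeded both other lines. The differences were 0.35 (SE 0.17) for SV5 NN4 against SV5, 0.42 (SE 0.17) for SV5 against NIH 3T3 and 0.77 (95% interval 0.37 to 1.17) for SV5 NN4 against NIH 3T3, with limma adjusted p of 0.46, 0.33 and 0.08. The dimmer Tubb5 probe set, 1455719_at, went the other way against NIH 3T3: it averaged 9.72 ± 0.52 in SV5 NN4, 9.55 ± 0.38 in SV5 and 10.38 ± 0.46 in NIH 3T3 (SD, n = 3 each). Its differences were 0.17 for SV5 NN4 against SV5 and -0.83 for SV5 against NIH 3T3 (SE 0.32). Without SV5 replicate 3 they were -0.32 and -0.34. The pair differences for SV5 NN4 against SV5 were -0.42, -0.22 and 1.15, so the positive sign rested on the replicate 3 pair. Averaged over both probe sets, Tubb5 differed by 0.06 for SV5 NN4 against NIH 3T3.

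Tubb6 encodes the class V beta-tubulin, a minor isotype found in many cell types. Its probe set 1416431_at read 11.21, 10.11 and 10.38 in SV5 NN4, 10.41, 9.25 and 8.95 in SV5, and 10.47, 8.91 and 9.45 in NIH 3T3. Replicate 1 was highest in each line, so the lines overlapped, and yet SV5 NN4 was above SV5 in each pair by 0.80, 0.86 and 1.43. The difference was 1.03 (SE 0.18, 2.04-fold, limma adjusted p 0.057) for SV5 NN4 against SV5 and 0.96 (SE 0.18, adjusted p 0.055) against NIH 3T3. Between SV5 and NIH 3T3 it was -0.07 (SE 0.18).

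Tubg1 encodes the main gamma-tubulin, the nucleating subunit of the ring complex. On probe set 1417144_at its intensities were 117.3, 163.3 and 259.5 in SV5 NN4, 72, 57.99 and 80.99 in SV5, and 60.18, 53 and 83.18 in NIH 3T3. Every SV5 NN4 array was above all 6 arrays of the other lines, and SV5 and NIH 3T3 overlapped. The log2 difference was 1.28 (SE 0.19, 2.43-fold) for SV5 NN4 against SV5, with pair differences of 0.70, 1.48 and 1.67, and 1.40 (SE 0.19, 2.63-fold) for SV5 NN4 against NIH 3T3. For SV5 against NIH 3T3 it was 0.11 (95% interval -0.34 to 0.57). The limma adjusted p-values of the SV5 NN4 comparisons were 0.038 against SV5 and 0.028 against NIH 3T3, and 0.46 and 0.4 without the block.

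**Figure D2:**
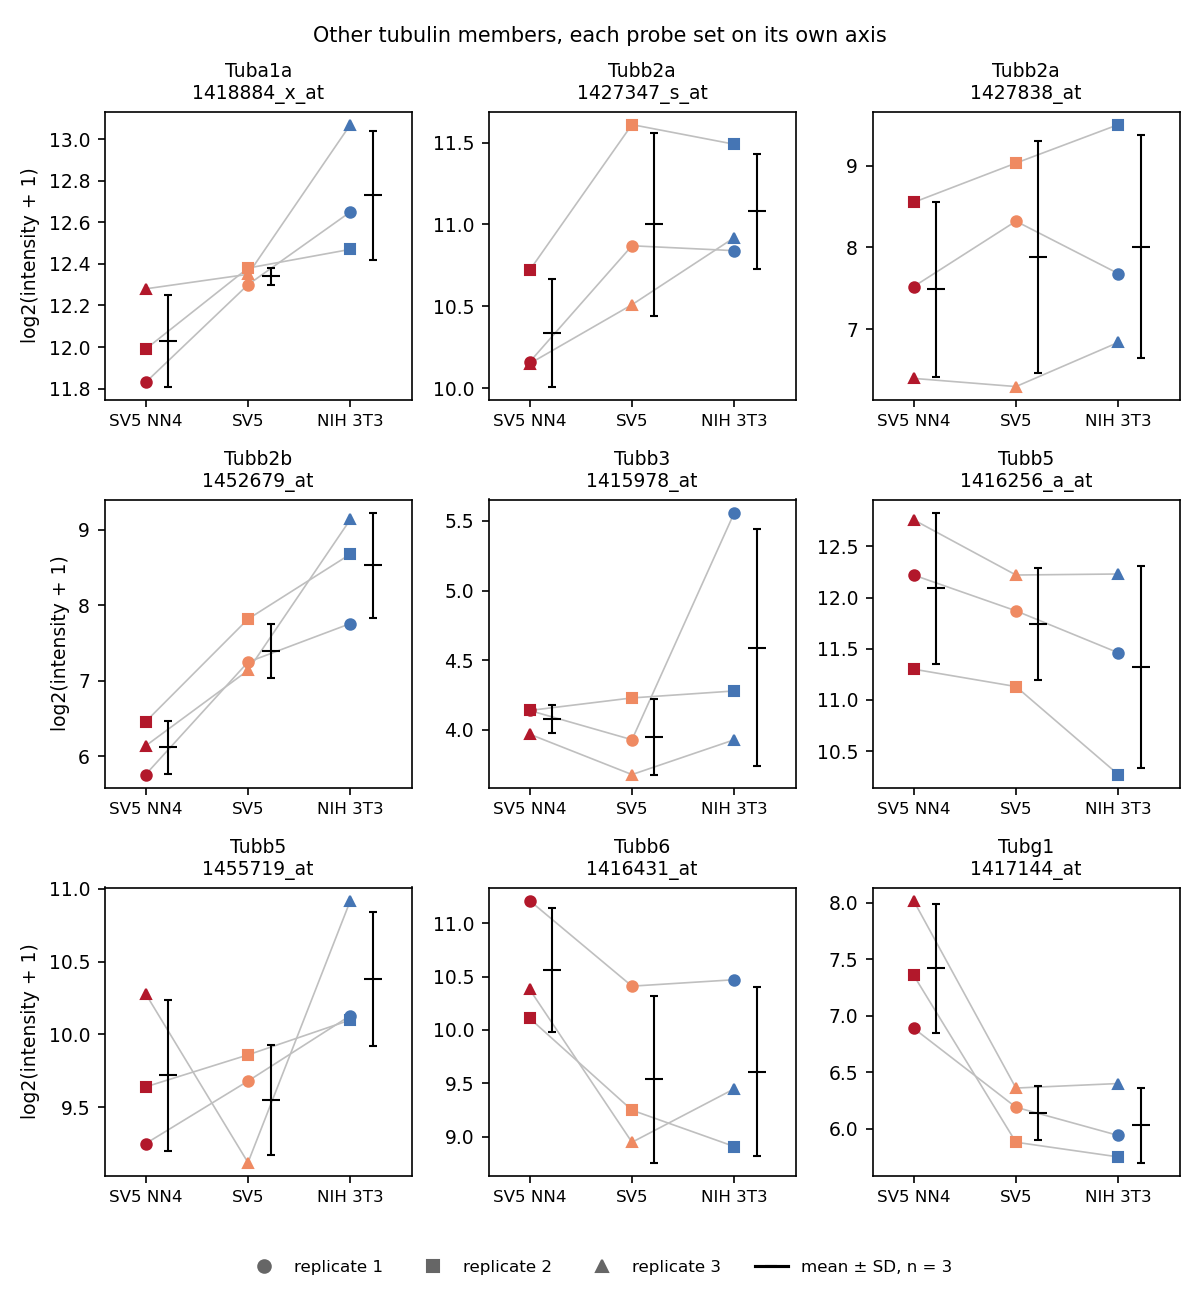
Levels of the 9 probe sets of the other 7 tubulin genes on each array, as log2(intensity + 1), drawn as points by replicate number with the mean ± SD of 3 arrays for SV5 NN4, SV5 and NIH 3T3. SV5 NN4 lies below both other lines for Tubb2b and Tuba1a and above them for Tubg1, while Tubb3 stays near the bacterial control range.

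Side by side, 1 of the 12 probe sets was called for SV5 against NIH 3T3, where the background was 0.0617% of all probe sets. It was the Tuba4a probe set, which was lower, and 0.0176% of all probe sets were called lower. For SV5 NN4 against SV5, 1 of 12 was called, Tubg1, which was higher, where the background was 0.864%, or 0.309% called higher. For SV5 NN4 against NIH 3T3, 3 of 12 were called, Tuba4a and Tubb2b lower and Tubg1 higher, beside a background of 1.65%, of which 0.516% was lower and 1.14% higher. The members were chosen on these comparisons, so nothing is read from these counts. With only the 2 lines compared 5 of 12 were called for SV5 NN4 against SV5, namely Tubg1, Tubb6, Tuba4a, Tubb2a and Tubb2b. In that fit 1504 of all 22690 probe sets were called. Without NIH 3T3 replicate 1 the count was 4 of 12, without Tubb2a, and 950 of all 22690 probe sets were called. Without the replicate block the counts of members called were 0, 0 and 1, beside backgrounds of 0.00441%, 0.0837% and 0.0793%, and the 1 was Tuba4a for SV5 NN4 against NIH 3T3.

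The lines did not overlap for 4 probe sets in SV5 against NIH 3T3, all lower (4.55% of all probe sets did not overlap, 2.39% lower). They did not overlap for 4 in SV5 NN4 against SV5, of which 3 were lower and 1 was higher (background 7.93%, 3.72% lower and 4.21% higher), nor for 6 in SV5 NN4 against NIH 3T3, 5 lower and 1 higher (background 6.45%, 3.11% lower and 3.34% higher). The median difference of the 12 probe sets was -0.27 for SV5 against NIH 3T3, -0.11 for SV5 NN4 against SV5 and -0.59 for SV5 NN4 against NIH 3T3. Over all probe sets the medians were -0.04, 0.01 and -0.03. The comparisons share lines, so each set of differences is given on its own.

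**Figure D3:**
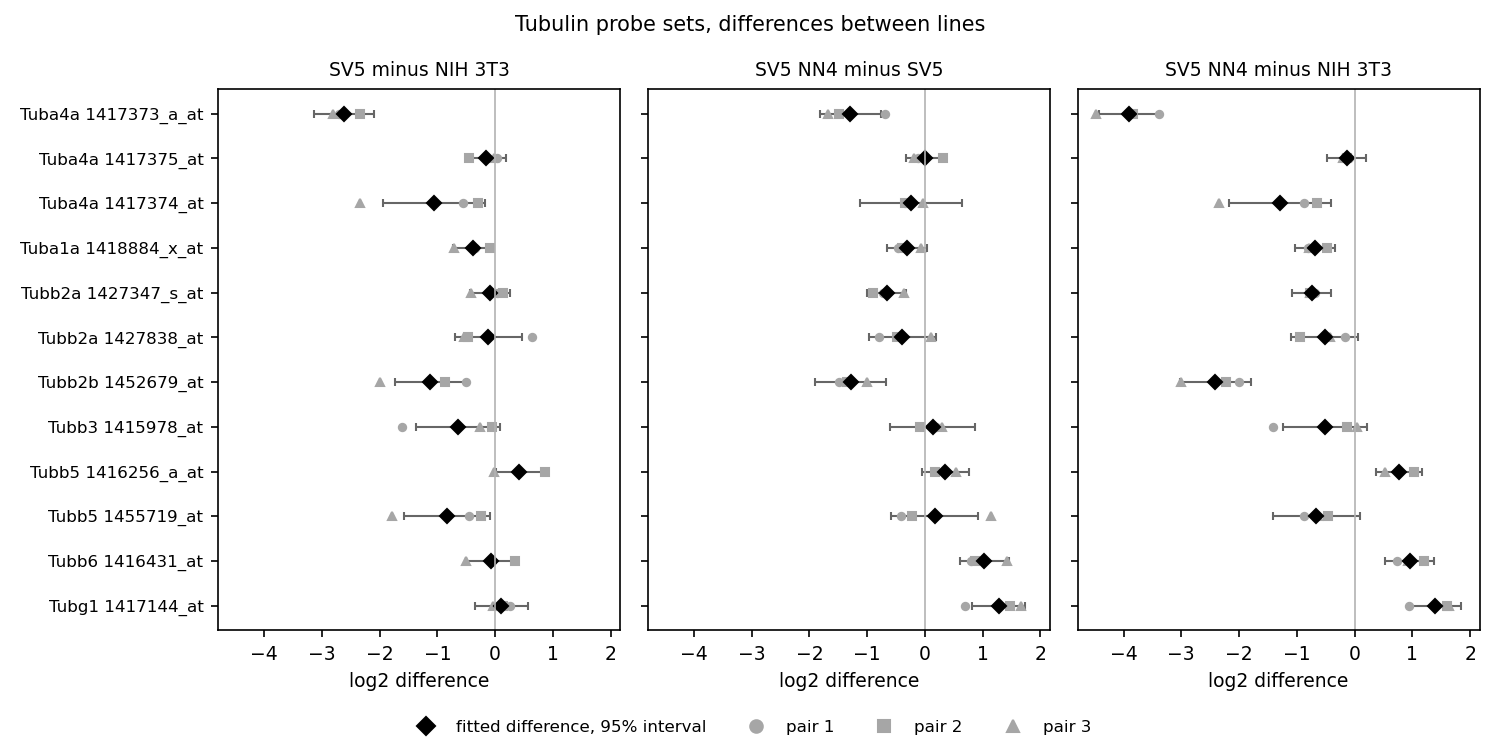
Log2 differences of the 12 tubulin probe sets in the 3 comparisons. Diamonds are the fitted differences with 95% intervals, and the small points are the differences of arrays with equal replicate numbers. Tuba4a probe set 1417373_a_at is lowest in every comparison (-2.61, -1.29 and -3.90), and Tubg1 and Tubb6 are above 0 where SV5 NN4 is compared.

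How far the calls held varied with the array left out. The Tuba4a difference for SV5 NN4 against NIH 3T3 stayed between -4.18 and -3.65, and was called each time 1 of the 9 arrays was left out, with limma adjusted p up to 0.034. For SV5 against NIH 3T3 the difference stayed between -2.73 and -2.42, yet it was called only where NIH 3T3 replicate 1 was left out, and the adjusted p reached 0.26. The Tubb2b call for SV5 NN4 against NIH 3T3 (-2.66 to -2.04) was lost without NIH 3T3 replicate 2 or without SV5 NN4 replicate 1, 2 or 3. The Tubg1 difference against SV5 stayed between 1.12 and 1.54, and its call was lost without NIH 3T3 replicate 2, any 1 SV5 replicate, or SV5 NN4 replicate 2 or 3 (adjusted p up to 0.27). Against NIH 3T3 it stayed between 1.24 and 1.65, and the call was lost without NIH 3T3 replicate 2 or 3, SV5 replicate 2, or SV5 NN4 replicate 2 or 3 (adjusted p up to 0.19).

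**Figure D4:**
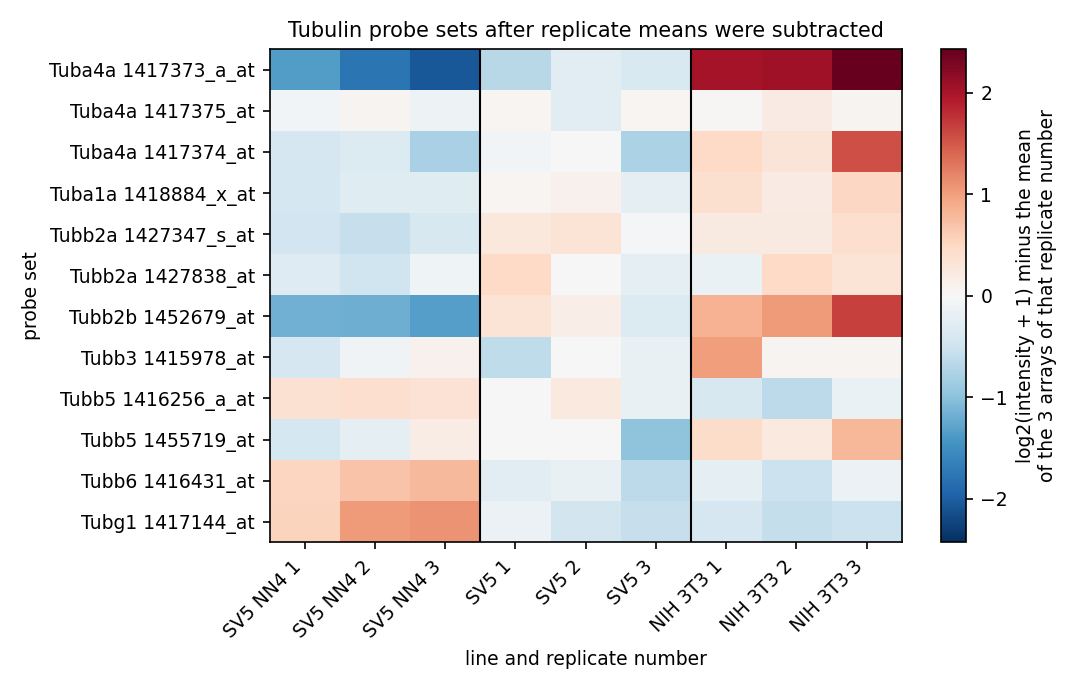
Levels of the 12 tubulin probe sets on the 9 arrays after the mean of the 3 arrays with the same replicate number was subtracted, in log2 units, with SV5 NN4, SV5 and NIH 3T3 from left to right. Tuba4a 1417373_a_at and Tubb2b are lowest on the SV5 NN4 arrays and highest on the NIH 3T3 arrays, and Tubg1 and Tubb6 are highest on the SV5 NN4 arrays.

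After the replicate means were subtracted, the Pearson correlation with the brightest Tuba4a probe set over the 9 arrays was 0.94 for Tubb2b and 0.91 for Tuba1a. It was -0.87 for the brighter Tubb5 probe set, -0.79 for Tubg1 and -0.67 for Tubb6. The other Tuba4a probe sets gave 0.84 (1417374_at) and 0.48 (1417375_at). The 9 points come from only 3 lines, so these values describe the order of the lines. Among 7141 genes at or above the median level, the 6 most like Tuba4a were Zfp622 (r = 0.978), Apobec1 (0.976), Erc1 (0.973), Hrh3 (0.972), Tmem268 (0.962) and Npc2 (0.962). Their differences for SV5 NN4 against NIH 3T3 were smaller than that of Tuba4a: -0.85 for Zfp622, -0.47 for Apobec1, -0.40 for Erc1, -0.36 for Hrh3, -1.18 for Tmem268 and -0.65 for Npc2.

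None of the 3 measured genes nearest to Tuba4a on chromosome 1 was called by limma in any comparison. Stk16, a kinase gene on the opposite strand beside Tuba4a, differed by 0.51 (SE 0.15, limma adjusted p 0.21) for SV5 against NIH 3T3 and -0.09 (adjusted p 0.93) for SV5 NN4 against SV5. Dnajb2, which encodes a J-domain co-chaperone, differed by -0.35 (adjusted p 0.8) for SV5 NN4 against SV5 and -0.35 (adjusted p 0.63) for SV5 NN4 against NIH 3T3. The Glb1l probe sets had differences between -0.26 and 0.19. Tubg2, the neighbour of Tubg1 and the other gamma-tubulin gene, differed by 0.10 for SV5 NN4 against SV5 on its brighter probe set, where Tubg1 differed by 1.28.

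Of 12 other tubulin genes, 6 had a probe set of their own: Tuba3b, Tuba8, Tubb4a, Tubb4b, Tubd1 and Tubg2. None was called by limma in any of the 3 comparisons, and at an unadjusted p under 0.05 only Tubb4b, a beta-tubulin of many tissues, passed, in both SV5 NN4 comparisons. Its brightest probe set, 1423642_at, read 9.51, 8.50 and 10.77 in SV5 NN4, 8.43, 7.74 and 9.37 in SV5, and 8.82, 6.06 and 9.07 in NIH 3T3. SV5 NN4 was above SV5 in each pair, with a difference of 1.08 (SE 0.37, adjusted p 0.26), and it was 1.61 above NIH 3T3 (adjusted p 0.085). The 5 dimmer Tubb4b probe sets differed by 0.02 to 0.48 between SV5 NN4 and SV5, and by -0.24 to 0.24 between SV5 NN4 and NIH 3T3, so they did not share the larger difference of the brightest. For the other 5 genes the differences by brightest probe set lay between -0.29 and 0.20 in all 3 comparisons.

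Genes that work with tubulin were taken as 9 lists of 179 genes, the other tubulins included, of which 134 were measured. By limma 0 of 134 were called for SV5 against NIH 3T3 (0.0484% of all genes were called), 2 for SV5 NN4 against SV5 (1.49%, beside 1.05% of all genes) and 3 for SV5 NN4 against NIH 3T3 (2.24%, beside 1.96%). At an unadjusted p under 0.05 the counts were 21, 27 and 40 of 134, where 15%, 14.6% and 19.4% of all genes passed. The list median differences were 0.07, 0.08 and 0.19, against -0.03, 0.01 and -0.03 over all genes. Without the replicate block none of the 134 was called in any comparison, and with 1 array left out the called counts ranged over 0 to 14 for SV5 NN4 against SV5 and 0 to 17 for SV5 NN4 against NIH 3T3. The highest of each came without NIH 3T3 replicate 1.

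Dynll2, a light chain of dynein, was higher in SV5 NN4 than in SV5. Its levels were 9.03, 9.17 and 10.49 in SV5 NN4 and 8.32, 8.13 and 9.03 in SV5 (1.07, SE 0.16, limma adjusted p 0.036). In NIH 3T3 it read 8.78, 8.76 and 9.99. SV5 thus averaged below NIH 3T3 (-0.69), and SV5 NN4 differed from NIH 3T3 by 0.39, with neither difference called. Dctn6, a subunit of dynactin, fell in SV5 NN4 against both other lines. It read 8.76, 9.02 and 8.27 in SV5 NN4, 9.69, 9.65 and 9.44 in SV5, and 9.68, 9.96 and 9.48 in NIH 3T3. Every SV5 NN4 array lay below every array of both other lines, while SV5 and NIH 3T3 overlapped. The differences were -0.91 (adjusted p 0.038) against SV5 and -1.02 (adjusted p 0.025) against NIH 3T3. With arrays left out in turn, the adjusted p reached 0.25 for Dynll2, and for Dctn6 0.27 against SV5 and 0.18 against NIH 3T3. Without the replicate block none of these 3 calls was made (adjusted p 1 for Dynll2, 0.51 and 0.42 for Dctn6).

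The ring complex list held 17 measured genes beside Tubg1. None was called by limma for SV5 NN4 against SV5, and at an unadjusted p under 0.05 4 were higher and 2 lower, with a median of 0.26. In this comparison 14.6% of all genes passed that unadjusted threshold and 1.05% were called, which is the background for each list below. Tubulin folding factors, which help assemble the heterodimer, had 20 measured genes, 0 calls, 2 lower at an unadjusted p under 0.05 and a median of 0.06. Modifying enzymes, 14 genes, had 0 called, none at an unadjusted p under 0.05 and a median of 0.05. The factors of tubulin mRNA decay, 8 genes, had 0 called, 1 lower at an unadjusted p under 0.05 and a median of -0.14. Stabilising and plus-end proteins, 20 genes, had 0 called, 1 higher and 1 lower at an unadjusted p under 0.05 and a median of -0.03.

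Transport motors and dynactin, 27 genes, had the 2 calls above and a median of 0.02. Destabilising and severing proteins, 11 genes, had 0 called, 3 higher at an unadjusted p under 0.05 and a median of -0.05.

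Spindle motors and bundlers had the largest median of the 9 lists for SV5 NN4 against SV5. Of 11 measured genes, 10 lay above 0 for SV5 NN4 against SV5, with a median of 1.01. At an unadjusted p under 0.05, 8 were higher, where 14.6% of all genes passed in either direction. By limma 0 were called, beside 1.05% of all genes. Prc1, which bundles the central spindle, differed by 1.07 (adjusted p 0.15), and the mitotic kinesin Kif22 by 1.11 (adjusted p 0.056). Against NIH 3T3 all 11 lay above 0, with a median of 0.72 and 1 call (beside 1.96% of all genes), Tpx2, a spindle assembly factor. In the replicate 1 pair, however, NIH 3T3 was above SV5 NN4 for Kif11 (7.91 against 6.86), Cenpe (6.22 against 4.62), Nusap1 and Kifc1. For the rest of the list SV5 NN4 was above NIH 3T3 in that pair. Tpx2 rose in SV5 NN4: it read 8.86, 7.83 and 8.72 in SV5 NN4 and 8.32, 6.74 and 7.27 in NIH 3T3 (1.03, SE 0.18, adjusted p 0.046). For SV5 against NIH 3T3 the list median was -0.11. Fignl1, an ATPase of the list of destabilising and severing proteins, also rose in SV5 NN4 against NIH 3T3, by 1.40 (SE 0.24, adjusted p 0.046). It read 7.76, 6.93 and 7.76 in SV5 NN4 and 6.98, 5.37 and 5.92 in NIH 3T3. For both Tpx2 and Fignl1 the arrays of these 2 lines overlapped. With arrays left out in turn, the adjusted p reached 0.24 for Tpx2 and 0.25 for Fignl1, and without the replicate block it was 1 and 0.77. Prc1 and Kif22 were chosen as examples after their values were seen.

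**Figure D5:**
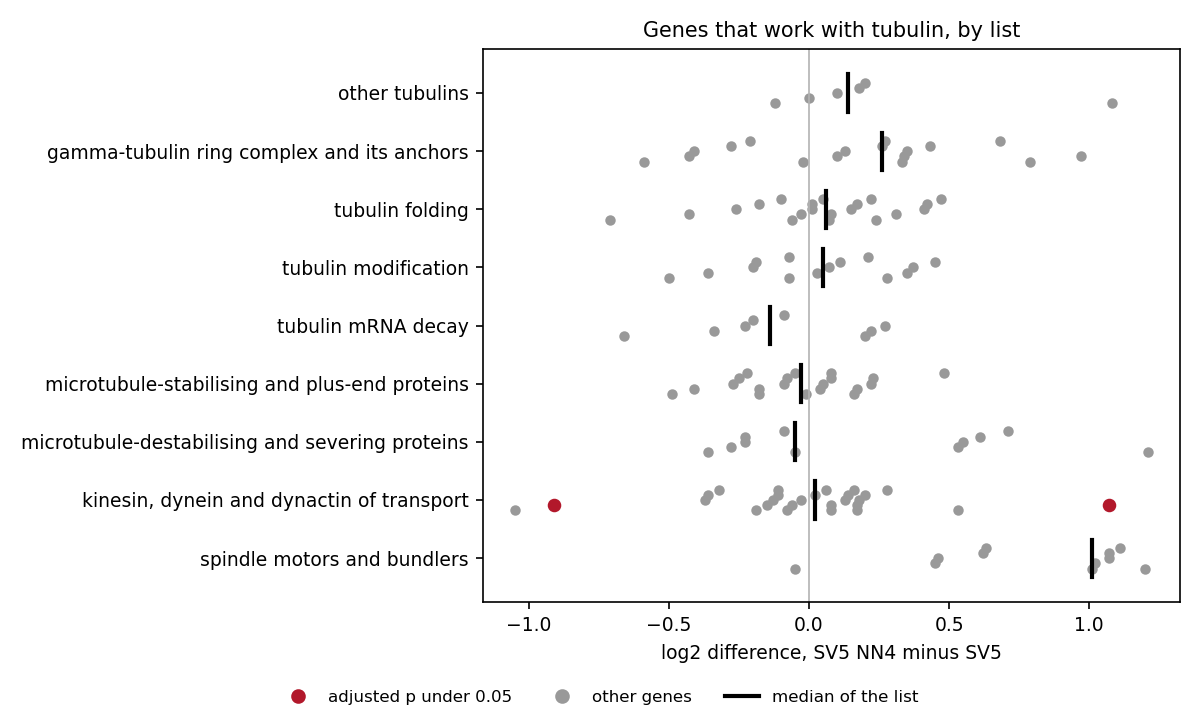
Log2 differences of SV5 NN4 minus SV5 for the measured genes of each list of tubulin-related genes, 1 point a gene by its brightest probe set, with the list's median. The spindle list is centred on 1.01, and the other lists have medians between -0.14 and 0.26.

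Several of these tubulins are best known from neurons and platelets, so markers of both were read beside them. The summed linear signal of the 10 neuronal markers, on the log2 scale, was 7.73 to 8.46 in SV5 NN4, 7.82 to 8.40 in SV5 and 7.96 to 8.48 in NIH 3T3, and 0 of 10 were called by limma in any comparison. The 4 measured platelet markers, a lineage with abundant tubulin, summed to 7.39 to 8.11 in SV5 NN4, 7.15 to 8.16 in SV5 and 7.72 to 8.0 in NIH 3T3, with 0 called. Among these 4, 2 (Itga2b and Gp9) reached the median probe set mean. The 10 fibroblast markers summed to 14.55 to 15.22 in SV5 NN4, 15.24 to 15.86 in SV5 and 14.68 to 15.65 in NIH 3T3. Of these, 0 were called for SV5 against NIH 3T3, 3 for SV5 NN4 against SV5 (median difference -0.85, beside 1.05% of all genes called) and 2 for SV5 NN4 against NIH 3T3 (median -0.39, beside 1.96%). The part of that shift in the tubulin values was not tested.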

How the data were processed

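The authors deposited intensity values on a linear scale for 22690 probe sets per array. Per the submitters' processing notes RMA was used, with no version or settings given there. Values were taken as log2(intensity + 1) and fitted with limma 3.58.1 in R 4.3.3, with a mean for each line and the replicate number as a block over all 9 arrays, and p-values were adjusted by Benjamini-Hochberg. Equal-numbered arrays of different lines deviated together (r of 0.26 to 0.84 in 9 pairs, against -0.73 to 0.11 in 18 other pairs). No label backs the pairing, so that check is its only basis in the data. Each line's mean was subtracted first, so positive values in equal pairs push the other pairs towards negative ones. The block was chosen with earlier results of these data known. Whether replicates were separate cultures is not said in the labels, and the spread behind each p-value, that between arrays, may be technical. The number of arrays limits the precision.

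Gene symbols are those of the platform annotation, with 1 symbol for 20380 probe sets, array controls left out, and several for 691 (never used to name a gene). The remaining 1619 had no symbol or were array controls. Each listed gene stands by its brightest probe set over the 9 arrays. The text names every member probe set, every other measured tubulin, up to 3 called genes a list and comparison, the nearest neighbours of Tuba4a, the 6 genes most like it, and Nras. Uncalled genes of the spindle list, such as Prc1 and Kif22, were named outside that rule, after their values were seen. Members and lists were chosen with earlier results of these data known. Promoters are RefSeq sequences (GRCm38.p6). Alternatives were the fit without the block, a pseudocount of 16, bright probe sets only, median centring, quantile normalization, 2 lines only, each array left out and an average over a gene's probe sets.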

Additional observations from a re-analysis of the deposited data

How the results depend on the processing

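Main counts of called probe sets were 14 for SV5 against NIH 3T3, 196 for SV5 NN4 against SV5 and 375 for SV5 NN4 against NIH 3T3. Without the replicate block they were 1, 19 and 18, and with only the 2 lines compared 0, 1504 and 18. For SV5 against NIH 3T3 a pseudocount of 16, median centring and quantile normalization each gave 0 called probe sets. Leaving out 1 array gave 0 to 49, 14 to 950 and 13 to 1239, highest without NIH 3T3 replicate 1 (49, 950 and 1239). For SV5 NN4 against NIH 3T3 the lowest came without SV5 NN4 replicate 2 (13). Called genes of the tubulin-related lists (0, 2 and 3) numbered 0, 0 and 0 without the block. With only the 2 lines compared they were 0, 17 and 0. A pseudocount of 16 gave 1 for SV5 NN4 against SV5 and 1 against NIH 3T3, probe sets at or above the median mean gave 5 for SV5 NN4 against SV5, and quantile normalization gave 1 for SV5 NN4 against NIH 3T3. With 1 array left out these list counts ran from 0 to 0, 0 to 14 and 0 to 17. The cause of these shifts was not tested. Each array left out moved at least 1 of these counts by over 1.5 times. For the called members, the replicate block changed the Tuba4a call for SV5 against NIH 3T3, the Tubg1 calls and the Tubb2b call, as given beside them, and not the Tuba4a call for SV5 NN4 against NIH 3T3. Other settings ended member calls too: a pseudocount of 16 for Tubg1 against SV5 (adjusted p 0.066), and only 2 lines for Tubg1 (0.088) and Tubb2b (0.057) in SV5 NN4 against NIH 3T3. The Tuba4a call for SV5 against NIH 3T3 was lost with a pseudocount of 16, median centring, quantile normalization and only 2 lines. Members called for SV5 NN4 against SV5 numbered 5 of 12 with only 2 lines, where 1504 of 22690 probe sets were called. With bright probe sets only they numbered 3 of 11, where 286 probe sets were called in all. The sign was kept in every setting tried by 6, 9 and 12 of the 12 tubulin probe sets in the 3 comparisons.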
